A study of Homo sapiens with 10 samples.

Results

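Rb binding sites in cells that had received no inhibitor were compared between a pair of established human cell lines, OVCAR-3 and Kuramochi, both models of high-grade serous carcinoma of the ovary. The sites came from 4 CUT&RUN libraries, 2 from each line, made with an antibody against Rb after 2 days in the solvent DMSO. Overlapping peaks of the 4 libraries (1 bp or more) were joined into regions, which gave 12185 regions, beside 22935 found over all 8 Rb libraries of these lines. A region was called shared when all 4 DMSO libraries held a peak in it, OVCAR-3-only when both OVCAR-3 libraries and neither Kuramochi library did, Kuramochi-only in the reverse case, and mixed otherwise. There were 3268 shared regions (26.8% of 12185), 673 OVCAR-3-only regions (5.52%), 530 Kuramochi-only regions (4.35%) and 7714 mixed regions. Both lines carried their own RB1 gene with no engineered change (genotype WT) and grew in the same RPMI-1640 medium with serum. This part of the study asked where Rb sits on chromatin when CDK2 is inhibited. The same lines therefore also had 2 Rb libraries each after 2 days with 300 nM of the CDK2 inhibitor INX-315. Each line had 1 IgG2a control library from DMSO cells. The libraries of a group were individual samples of a single experiment in each line. The p-values below therefore rest on the spread between such samples, which the tests of single regions pool over regions. Any difference between the lines is one between 2 lines, not between kinds of tumour.

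Rb, the product of the retinoblastoma tumour suppressor gene, has no DNA-binding domain of known sequence preference and reaches promoters mainly through E2F transcription factors. Bound there it holds down genes for DNA replication and entry into S phase, until cyclin-dependent kinases phosphorylate it and release E2F. In CUT&RUN an antibody directs micrococcal nuclease to the bound protein inside permeabilised cells, and the released fragments are sequenced. The strength of a site is given here as fold enrichment, as the authors' peak caller wrote it. It is the ratio of fragments at the summit of the peak to the local background, with 1 added to each. Mean coverage per base was at most 0.53 fragments in any library, so the fold is lower than the plain ratio and depends on depth.

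The sequences of a few sites show what the shared and line-only promoters looked like. The stretches were read from the hg38 plus strand within 100 bp of the summit and contain no annotated exon, so they hold no UTR. For each class they belong to promoter regions with E2F letters (TTTCCCGC or TTTGGCGC on either strand) in such a stretch. Capitals mark these letters. The regions were picked by strength, but some regions were left out of the choice. The examples are therefore not always the strongest of their class. Among the OVCAR-3-only promoters, a stronger one with these letters near its summit is not shown. NEMP1 encodes a nuclear envelope protein and NASP a histone chaperone, CAMK4 a calcium/calmodulin-dependent kinase, KANK1 an adaptor at the cell cortex, and WLS the carrier of Wnt ligands on their way out of the cell. The stretches lie at chr12:57078792-57078935 and chr1:45584739-45584938 (shared), chr5:111224099-111224298 and chr9:504847-505046 (OVCAR-3-only), and chr1:68231826-68232022 and chr18:46173713-46173884 (Kuramochi-only).
NEMP1: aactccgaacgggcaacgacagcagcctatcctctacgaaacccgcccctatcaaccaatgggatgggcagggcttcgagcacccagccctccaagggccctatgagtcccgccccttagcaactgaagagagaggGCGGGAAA
NASP: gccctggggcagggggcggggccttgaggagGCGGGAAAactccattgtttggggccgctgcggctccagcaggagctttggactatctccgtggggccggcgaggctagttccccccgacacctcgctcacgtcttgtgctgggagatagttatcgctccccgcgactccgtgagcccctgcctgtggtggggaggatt
CAMK4: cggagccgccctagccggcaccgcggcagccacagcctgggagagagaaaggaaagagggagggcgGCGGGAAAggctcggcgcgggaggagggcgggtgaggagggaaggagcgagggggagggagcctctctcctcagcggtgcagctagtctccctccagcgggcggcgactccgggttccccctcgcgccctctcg
KANK1: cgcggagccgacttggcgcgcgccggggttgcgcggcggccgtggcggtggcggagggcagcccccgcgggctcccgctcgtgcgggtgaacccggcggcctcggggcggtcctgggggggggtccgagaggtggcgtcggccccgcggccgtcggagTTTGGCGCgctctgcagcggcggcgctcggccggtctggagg
WLS: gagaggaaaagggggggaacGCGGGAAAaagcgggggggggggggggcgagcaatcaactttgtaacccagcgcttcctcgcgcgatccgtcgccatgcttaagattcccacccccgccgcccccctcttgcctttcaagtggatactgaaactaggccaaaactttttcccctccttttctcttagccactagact
C18orf25: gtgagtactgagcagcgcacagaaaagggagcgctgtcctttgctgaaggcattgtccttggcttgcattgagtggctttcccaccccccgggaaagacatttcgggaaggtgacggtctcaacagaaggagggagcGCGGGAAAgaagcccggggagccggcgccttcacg

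At NEMP1 the peak had a fold enrichment of 44.7 and 45.1 in the OVCAR-3 libraries and 38.8 and 54.4 in the Kuramochi libraries, so the groups overlapped. At CAMK4 the OVCAR-3 peaks had 6.65 and 9.61 and no Kuramochi DMSO library had a peak. At WLS the Kuramochi peaks had 7.68 and 8.66 and no OVCAR-3 DMSO library had a peak. Under INX-315, however, WLS had 10.6 and 17.0 in OVCAR-3 against 7.86 and 10.0 in Kuramochi. C18orf25 likewise had 11.2 and 27.1 in OVCAR-3 against 9.97 and 9.87 in Kuramochi. Both Kuramochi-only examples thus had higher folds in OVCAR-3 under INX-315, while CAMK4 and KANK1 stayed higher in OVCAR-3. These folds were not adjusted for differences between libraries. Over the regions called in all 4 INX-315 libraries, the median fold was 10.9 and 19.5 in OVCAR-3 against 13.2 and 10.4 in Kuramochi. The letters were present in 5.65% of 3166 shared promoter windows of 200 bp (95% Wilson interval 4.90 to 6.51), 3.82% of 602 OVCAR-3-only windows (2.56 to 5.67) and 4.15% of 458 Kuramochi-only windows (2.67 to 6.39). Of the windows of the same length at the starts of all 19970 protein-coding genes on the same chromosomes, 1.79% held them. The same letters read backwards without complement were in 2.46%, 1.33%, 1.97% and 1.27% of the same window sets, in that order. The CCAAT box (CCAAT on either strand) was in 23.3% of shared, 14.6% of OVCAR-3-only and 20.1% of Kuramochi-only promoter windows, against 25.9% at all starts. In all, 11 motifs were searched and no test was made, and a match in these windows is a description of the sequence. Overlap between different motifs was allowed.

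The libraries of the lines were alike in their overall size. The OVCAR-3 libraries held 6162 and 7984 peaks and the Kuramochi libraries 5221 and 8794, or 7073 ± 1288 and 7008 ± 2527 peaks (SD, n = 2 each), and an exact two-sided permutation test of the log2 numbers gave p = 1. With 2 libraries against 2 there are 6 arrangements and the smallest possible p is 0.333. At promoters, taken as 2000 bp upstream to 500 bp downstream of a transcription start, lay 91.9% and 89.2% of the OVCAR-3 peaks and 93.0% and 86.9% of the Kuramochi peaks (exact permutation p = 1). The peak lists give no read totals. Mean coverage per base, in fragments recovered from the lists, was 0.495 and 0.501 in OVCAR-3 against 0.445 and 0.380 in Kuramochi, and the median summit held 10 to 11 fragments, so weak sites rested on few fragments. All libraries of a line were called against the same single IgG2a library, so a difference in local background between the lines cannot be told apart from a difference between 2 control libraries. Of the peaks of a DMSO list, 0.227% to 0.413% overlapped a peak of the IgG2a library of the line.

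The peak lists of a line overlapped in part. Of the shorter Kuramochi list 89.5% of peaks met a peak of the longer one, and of the longer list 52.0% met one of the shorter. In OVCAR-3 the same shares were 81.1% and 62.0%. Between the lines the shares ran from 50.1% to 77.7%, a range that overlaps the within-line one. Single-library regions numbered 5043, of which 2385 were in the longer Kuramochi list alone, and a further 2671 regions had a peak in at least 1 library of each line but not in all 4. A region missing from a list may hold Rb below the caller's threshold, so line-only means called in 1 line, not absent from the other.

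**Figure D1:**
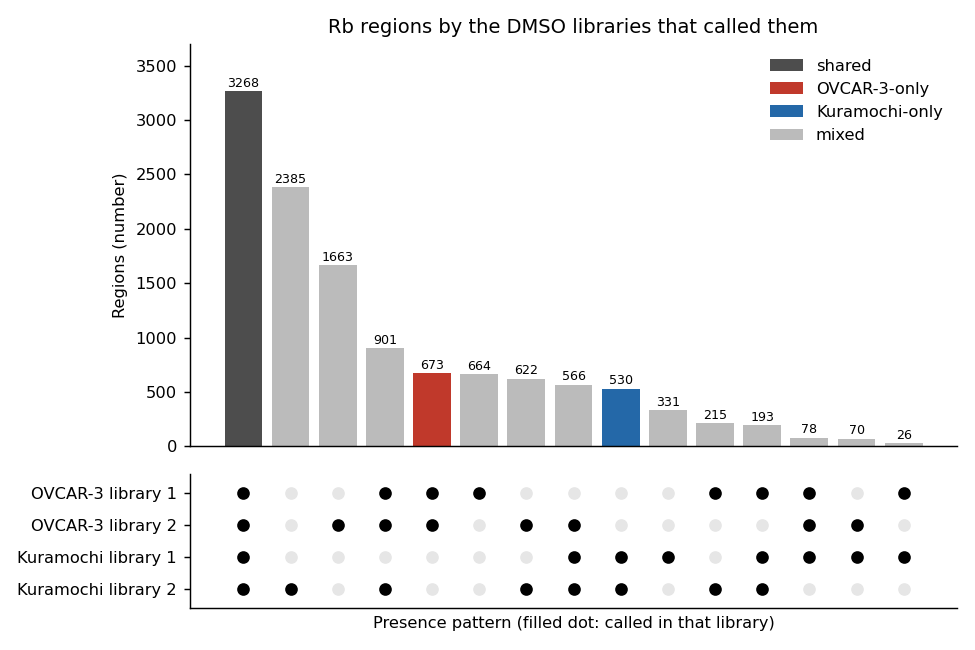
Bars give the number of merged Rb regions for each pattern of presence in the 4 DMSO libraries, with the pattern shown as filled dots below each bar. The 3268 regions called in all 4 libraries form the most frequent single pattern, the next bars are regions of a single library, and the OVCAR-3-only (673) and Kuramochi-only (530) patterns are smaller than both.

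The shared sites were mostly strong and almost all promoters. Strength bears on whether a list holds a peak, so their strength is a description. Of the 3268, 96.9% (95% Wilson interval 96.2 to 97.4) lay at a promoter, compared with 89.5% (86.9 to 91.6) of the OVCAR-3-only, 86.4% (83.2 to 89.1) of the Kuramochi-only and 76.6% (75.6 to 77.5) of the mixed regions. Shared regions had a median width of 1084 bp against 613 bp and 636 bp for the OVCAR-3-only and Kuramochi-only regions, and their summits lay a median of 101 bp from a transcription start against 138 and 131 bp. Ranked within each list by fold enrichment, with 100 as the strongest, their median mean rank was 67.6, and those of the OVCAR-3-only and Kuramochi-only regions were 40.9 and 40.6. A mean rank over 90 was reached by 469 shared regions but by 7 regions of each line-only class. The intervals cover counting error only and treat neighbouring regions as separate.

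The 5 strongest shared sites were at CLSPN, CSE1L, within GRIN1, at EMSY and at KPNB1. CLSPN encodes claspin, an adaptor of the replication checkpoint, and its promoter region (chromosome 1, 35769096 to 35770398) reached 59.6- and 94.2-fold enrichment in the OVCAR-3 libraries, against 70.0 and 123.4 in those of Kuramochi. It was the highest peak of all 4 lists. CSE1L and KPNB1 encode factors of nuclear import and its recycling. CSE1L had 42.3 and 66.0 in OVCAR-3 against 57.6 and 83.6 in Kuramochi, and KPNB1 had 52.1 and 55.1 against 35.9 and 60.1. The site within GRIN1, a glutamate receptor subunit gene, was exonic and lay 1580 bp from the nearest protein-coding start, outside the promoter window, with 49.8 and 44.2 against 41.9 and 59.9. At EMSY, which encodes a BRCA2-interacting protein, the folds of 44.7 and 46.3 against 40.7 and 55.6 overlapped between the lines while the fragments at the summit did not, at 185 and 213 in OVCAR-3 and 60 and 78 in Kuramochi. The local background there was 6.39 and 7.23 times the genome-wide mean in OVCAR-3 and 1.12 and 1.11 times in Kuramochi. None of these 5 regions passed the limma test described below (log2 differences, OVCAR-3 minus Kuramochi, from -0.28 at CSE1L to 0.31 at KPNB1).

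The list of G1/S E2F genes, which encode replication factors, nucleotide enzymes and the E2F proteins themselves, was bound in both lines almost throughout. A promoter peak in all 4 DMSO libraries was found for 45 of the 48 genes, against 18.8% of 20020 protein-coding genes, and the other 3 (POLA1, POLE2 and CHAF1B) were mixed. No gene of this list was OVCAR-3-only or Kuramochi-only, where the shares over all protein-coding genes were 2.71% and 2.14%. DNA repair genes were shared in 29 of 37 cases, among them BRCA1 and BRCA2, and genes for Rb, CDK2, cyclins and their partners in 27 of 39, again with none line-only. CCNE1 encodes cyclin E1, the partner of CDK2, and had OVCAR-3 folds of 14.5 and 17.7 against Kuramochi folds of 10.7 and 12.7. At this gene the summit held 62 and 77 fragments in OVCAR-3 against 20 and 22 in Kuramochi, and the local background was 6.76 and 6.81 times the genome-wide mean in OVCAR-3 and 2.17 and 2.15 times in Kuramochi. RB1 itself had 9.37 and 7.99 in OVCAR-3 against 6.79 and 12.7 in Kuramochi, and the lines overlapped.

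OVCAR-3-only promoters were led by FUT9, TTC9B, PTK2B with TRIM35, PCDHGC4, KIAA1586 and TNNI3. FUT9 encodes a fucosyltransferase that makes the Lewis X carbohydrate, and its region (chromosome 6, 96015114 to 96016570) had folds of 16.4 and 29.7. TTC9B had 19.9 and 19.8, and the remaining 4 lay between 11.9 and 15.8 in both OVCAR-3 DMSO libraries. At TTC9B the local background was 5.80 and 5.78 times the genome-wide mean, with 76 fragments at each summit. At the other leading promoters it was at most 1.39 times. PTK2B encodes a focal adhesion kinase family member, PCDHGC4 a clustered protocadherin of cell adhesion, and TNNI3 cardiac troponin I. The strongest OVCAR-3-only regions outside promoters were intergenic near NRP2 (13.4 and 14.7), intergenic near HMGA2 (10.1 and 9.36), in an intron of HOXD3 (8.70 and 9.95) and intergenic near ANKRD10 (8.03 and 8.66). None of these 10 regions had a peak in a Kuramochi DMSO library.

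Kuramochi-only promoters were led by ZNF718, BOLA1, LTBP4, STOM, EIF5A and KBTBD7. ZNF718, a zinc finger gene at the end of the short arm of chromosome 4 (124370 to 125289), was the exception to the moderate strength of its class, with folds of 33.2 and 66.0 and a mean rank of 99.7. BOLA1 encodes a mitochondrial protein of iron-sulphur cluster maintenance and had 16.5 and 23.5, and LTBP4, which encodes a binding protein for latent TGF-beta, had 16.1 and 23.1. STOM (stomatin), EIF5A (a translation factor) and KBTBD7 (a ubiquitin ligase adaptor) had folds between 13.9 and 23.8. Strong sites outside promoters were in an intron of AHRR, the repressor of the aryl hydrocarbon receptor (14.1 and 13.7), in an exon of the pseudogene NCF1C near GTF2IRD2B (11.8 and 10.9), and in an exon of CYP2T3P near CYP2F1 (9.53 and 14.6). NCF1C and GTF2IRD2B lie in repeated copies of DNA, so the placing of reads there is uncertain.

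**Figure D2:**
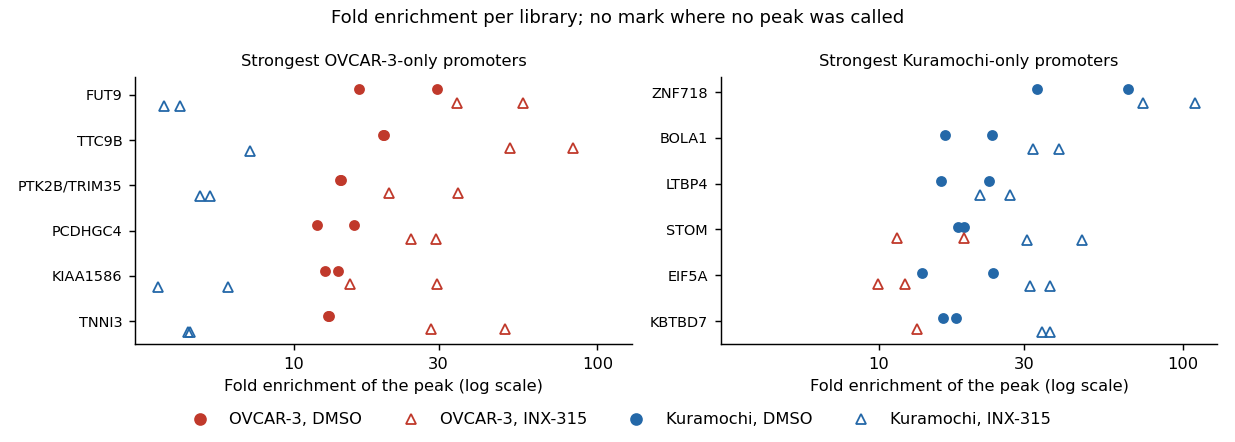
Each line of marks is one of the 6 strongest OVCAR-3-only (left) or Kuramochi-only (right) promoter regions, and each mark is the fold enrichment of its peak in 1 library on a log axis, with no mark where no peak was called. ZNF718 stands apart from the other Kuramochi-only regions at 33.2 and 66.0 under DMSO, and FUT9 and TNNI3 show low Kuramochi peaks under INX-315 beside high OVCAR-3 ones.

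Cell identity genes gave small counts in the line-only classes. Of 20 epithelial genes, 5 were OVCAR-3-only, none Kuramochi-only or shared, 8 were mixed and 7 had no promoter peak. Of all protein-coding genes, 18.8% were shared, 2.71% OVCAR-3-only, 2.14% Kuramochi-only, 24.7% mixed and 51.7% without a promoter peak, and the list counts here and in the next paragraph stand beside these shares. The 5 OVCAR-3-only epithelial genes were ESRP1, an epithelial splicing regulator, the transcription factors GRHL2, OVOL2 and GRHL1, and the keratin gene KRT7. Their folds in the OVCAR-3 libraries were modest, 12.04 and 7.86 at ESRP1, 4.38 and 11.99 at GRHL2, 4.84 and 5.97 at KRT7, 4.13 and 5.86 at OVOL2, and 4.56 and 4.09 at GRHL1. When each list was cut to the 5221 peaks with the lowest p-values, ESRP1 and KRT7 were again OVCAR-3-only and the other 3 became mixed. Of 20 mesenchymal genes, VIM (vimentin; 5.54 and 8.46) and the receptor kinase gene AXL (4.42 and 5.49) were Kuramochi-only, COL1A1 (7.21 and 9.55) was OVCAR-3-only, CDH2 was shared, 6 were mixed and 10 had no promoter peak.

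Of 39 HOX genes, which pattern the body axis, 4 (10.3%) were OVCAR-3-only, among them HOXA5, HOXD10 and HOXD11, and HOXA10 was Kuramochi-only. HOXA5 had folds of 4.94 and 4.87 in OVCAR-3, and HOXA10 had 6.23 and 5.07 in Kuramochi. HOXD10 and HOXD11 were called from the same peaks (5.04 and 7.73) and so count as 1 site. Among 31 mitotic genes, 9 (29.0%) were shared, 13 (41.9%) mixed and 3 (9.68%) Kuramochi-only, namely ASPM (6.90 and 9.27), a spindle pole gene, HMMR (4.79 and 7.03), which encodes a microtubule-associated receptor, and CDC20 (3.56 and 4.88), an activator of the anaphase-promoting complex. Genes of the serous ovarian lineage were shared in 5 of 20 cases (25%), near the share of all genes, including WT1 (19.97 and 22.2 against 10.5 and 18.6) and SOX17, with SPON1 OVCAR-3-only, CRABP2 Kuramochi-only, 4 mixed (PAX8 among them) and 9 without a promoter peak. Of 13 leukocyte, fibroblast and endothelial genes, 11 (84.6%) had no promoter peak in any DMSO library, 1 was mixed and COL1A1 was OVCAR-3-only. Rb at a promoter is not expression, so these counts do not check the identity of the lines.

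The share of line-only sites varied between chromosomes, with no test made. Of the 243 regions on chromosome X, 33 (13.6%) were OVCAR-3-only and 3 (1.24%) Kuramochi-only, against 5.51% and 4.37% over the 12095 regions of chromosomes 1 to 22 and X. Chromosome 4 held 38 OVCAR-3-only and 8 Kuramochi-only regions, chromosome 3 held 48 and 18, chromosome 18 held 15 and 3, and chromosome 21 held 13 and 2. The counts went the other way on chromosome 1, with 43 OVCAR-3-only and 72 Kuramochi-only regions, on chromosome 19 with 30 and 61, and on chromosome 16 with 10 and 26. The strength of shared sites varied too. The median summit height of shared regions, as a multiple of the genome-wide mean, differed between the lines (OVCAR-3 minus Kuramochi, log2) by 0.60 on chromosome 21, 0.38 on chromosome 18 and 0.28 on chromosome X, and by -0.47, -0.36 and -0.49 on chromosomes 1, 19 and 16. Other chromosomes departed from this order. Chromosome 8 had the lowest value, -1.02, with 37 OVCAR-3-only and 44 Kuramochi-only regions, chromosome 13 had -0.80 with 8 and 16, and chromosome 4 had -0.06 with its 38 and 8. Across the 23 chromosomes, Pearson's r between this difference and the log2 ratio of the line-only counts was 0.81 and Spearman's rho 0.89, as a description over points that share the same 4 libraries and their depths. The local background at the same shared regions differed by 0.74 on chromosome 21, 0.46 on chromosome 18, 0.19 on chromosome X, -0.31 on chromosome 1, -0.13 on chromosome 16 and 0.01 on chromosome 19. The part of the local background in these counts was not tested.

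**Figure D3:**
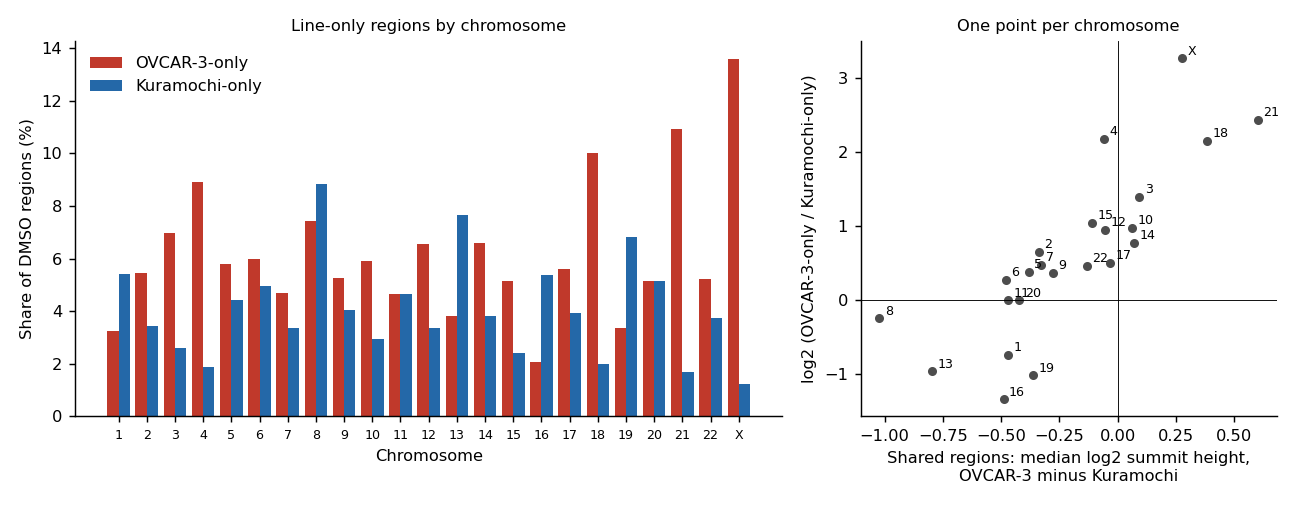
Left, the share of the DMSO regions of each chromosome that were OVCAR-3-only or Kuramochi-only, in percent. Right, for each chromosome, the log2 ratio of OVCAR-3-only to Kuramochi-only regions (0.5 added to each count) against the median log2 difference in summit height at shared regions, where chromosomes X, 21, 18 and 4 stand highest and 16 and 19 lowest.

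Strength at the shared sites differed between the lines at a minority of regions. Log2 fold enrichment was tested with limma over the 3260 shared regions of chromosomes 1 to 22 and X, centred on the median of each library, and 423 regions (13%) passed a Benjamini-Hochberg adjusted p of 0.05, 188 (5.77%) higher in OVCAR-3 and 235 (7.21%) higher in Kuramochi. Without centring 9 and 39 passed, and leaving out any 1 library left 88 to 216 in all. The fold divides by the local background, which moved with these calls, and its part in them was not tested. Its median log2 difference, OVCAR-3 minus Kuramochi, was 0.57 at the regions higher in Kuramochi and -0.22 at those higher in OVCAR-3. With summit fragments over the genome-wide mean in place of the fold, 702 regions passed, of which 262 were among the 423, and 403 of the 418 calls with a value kept their sign. The largest calls are given below with both measures or with their background where these parted.

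The regions that were higher in OVCAR-3 by large differences included RAB23, YPEL1, NT5M, and DCAKD with NMT1. RAB23, a small GTPase of Hedgehog signalling, had folds of 16.4 and 23.9 in OVCAR-3 and 4.60 and 7.25 in Kuramochi, a log2 difference of 1.89 ± 0.31 (SE, limma adjusted p = 4.5e-07). YPEL1 had 15.4 and 21.3 against 4.41 and 7.099 (1.804 ± 0.31, limma adjusted p = 2.5e-06). NT5M, a mitochondrial nucleotidase gene, differed by 1.65 ± 0.33 and DCAKD by 1.63 ± 0.28. Without the first OVCAR-3 library NT5M no longer passed (limma adjusted p = 0.0996). By summit fragments RAB23 differed by 2.21, YPEL1 by 1.40, NT5M by 2.46 and DCAKD by 2.18, and all 4 passed.

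The largest differences towards Kuramochi were at the histone genes H2BC12 and H2AC12, ELMO2, MIS12 with DERL2, CNBP, and a region nearest KCNRG. H2BC12 and H2AC12 encode core histones made in S phase, and their region was 8.70 and 7.99 in OVCAR-3 against 25.7 and 49.95 in Kuramochi (fold), a log2 difference of -1.995 ± 0.27 (limma adjusted p = 1.2e-10). MIS12, a kinetochore gene, had 9.66 and 11.3 against 31.2 and 58.6, a difference of -1.92 ± 0.25 (limma adjusted p = 4.6e-11). By summit fragments these regions differed by -2.26 and -1.94, close to their differences in fold. ELMO2, an engulfment and cell motility gene, differed by -1.97 ± 0.32 in fold and -0.91 in summit fragments, and CNBP, a nucleic acid-binding protein gene, by -1.78 ± 0.32 in fold and -0.05 in summit fragments (limma adjusted p = 0.91). The local background was 6.29 times the genome-wide mean at ELMO2 and 8.37 times at CNBP in OVCAR-3, and 1.88 and 1.03 times in Kuramochi. The region nearest KCNRG differed by -1.68 ± 0.29.

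**Figure D4:**
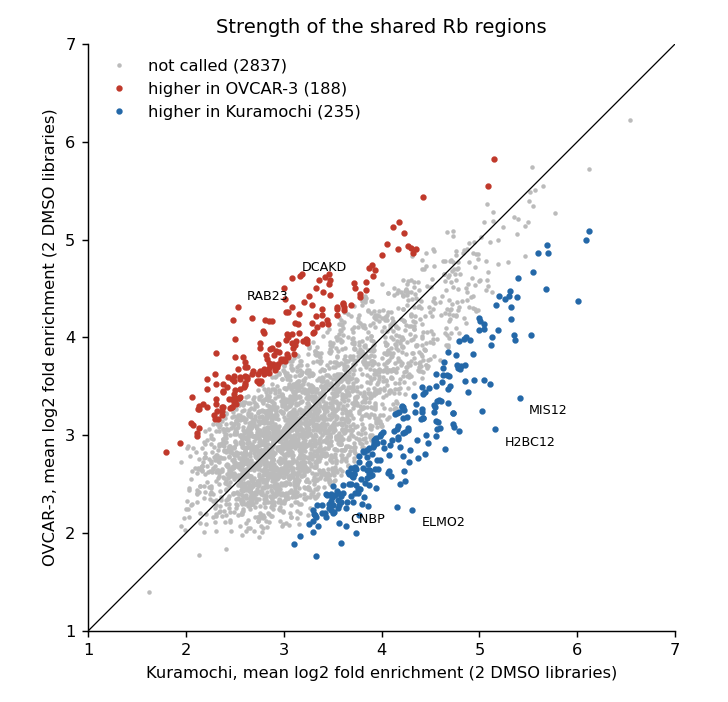
Each point is 1 of the 3260 shared regions, with the mean log2 fold enrichment of the Kuramochi DMSO libraries on the x axis and of the OVCAR-3 DMSO libraries on the y axis, before centring, and the diagonal marks equal values. The 188 regions called higher in OVCAR-3 lie above the diagonal and the 235 called higher in Kuramochi below it, with the 2837 others between.

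Among the G1/S E2F genes the strength differences went both ways. Of the 49 shared regions at these genes, 5 were higher in OVCAR-3 and 4 higher in Kuramochi, or 10.2% and 8.16% beside 5.77% and 7.21% of all regions tested, with a median log2 difference of -0.07. TK1, the thymidine kinase gene, had 15.03 and 21.5 in OVCAR-3 against 6.49 and 7.99 in Kuramochi (1.43 ± 0.30, limma adjusted p = 0.00016). GINS1 and MCM3, which encode parts of the replicative helicase, were higher in OVCAR-3 by 1.28 ± 0.28 and 0.95 ± 0.24, RFC4 by 1.07 ± 0.30 and RRM1 by 0.79 ± 0.29. MCM10, MCM4, E2F1 and FEN1 were higher in Kuramochi, by -1.24 ± 0.33, -0.80 ± 0.24, -0.83 ± 0.26 and -0.75 ± 0.25. E2F1 had 12.02 and 13.7 in OVCAR-3 against 20.5 and 29.7 in Kuramochi, and the lines did not overlap. By summit fragments TK1 (1.59), GINS1 (1.15), MCM3 (1.06), RFC4 (0.81) and MCM4 (-0.92) passed as well, while MCM10 (0.01), FEN1 (-0.15) and E2F1 (-0.48) did not, and RRM1 had no value. MCM10 held 15 and 22 fragments in OVCAR-3 against 10 and 32 in Kuramochi, with a local background of 5.32 and 5.16 times the genome-wide mean against 1 and 1, and at FEN1 the background was 4.26 and 3.10 times against 1.31 and 2.19. CCNE1 differed by 0.57 ± 0.29 and did not pass (limma adjusted p = 0.19). Of 30 regions at DNA repair genes, EXO1 (1.15 ± 0.30) was higher in OVCAR-3, and BARD1 (-0.69 ± 0.24), RAD54L (-0.99 ± 0.25) and RECQL4 (-1.44 ± 0.30) were higher in Kuramochi. By summit fragments RAD54L (-1.23) and RECQL4 (-1.21) passed, and EXO1 (0.21) and BARD1 (-0.28) did not. EXO1 held 23 and 29 fragments in OVCAR-3 against 17 and 29 in Kuramochi, with a background of 1.06 and 1 times the genome-wide mean against 4.69 and 3.54. A region at CDKN2C, the gene of the CDK inhibitor p18, was higher in OVCAR-3 by 1.35 ± 0.31. Its folds were 14.61 and 18.67 in OVCAR-3 against 6.156 and 7.887 in Kuramochi. Kuramochi had stronger promoter peaks of CDKN2C outside this region, at 8.794 and 9.497, so the difference holds for the region tested only. MYBL2 was the mitotic list gene higher in Kuramochi, by -1.08 ± 0.30. The CDKN2C region and MYBL2 both passed by summit fragments (0.78 and -1.23).

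The INX-315 libraries, which took no part in choosing the line-only sites, were used to read them again. They were called against the same IgG2a library of each line as the DMSO libraries, so their folds share that background. Of the 673 OVCAR-3-only regions, 637 (94.7%) were called in both OVCAR-3 INX-315 libraries, and 453 (67.3%, 95% Wilson interval 63.7 to 70.8) were also called in both Kuramochi INX-315 libraries. Of the 530 Kuramochi-only regions, 512 (96.6%) were called in both Kuramochi INX-315 libraries and 381 (71.9%, 67.9 to 75.6) in both OVCAR-3 INX-315 libraries. Of all 12185 DMSO regions, 74.9% were called in both Kuramochi and 77.4% in both OVCAR-3 INX-315 libraries, so the shares called in the other line lay somewhat below those of all regions. Every INX-315 list was longer than the DMSO lists, with 13031 to 17281 peaks. Shared regions were called in all 4 INX-315 libraries in 99.45% of cases (3250 of 3268), against 68.8% of all DMSO regions.

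In the INX-315 libraries the line-only regions that could be tested were on balance stronger in their own line. Limma was fitted over the 9467 regions called in all 4 INX-315 libraries, of which 2085 (22%) passed, 884 (9.34%) higher in OVCAR-3 and 1201 (12.7%) higher in Kuramochi. Of the 451 tested regions that had been OVCAR-3-only, 169 were higher in OVCAR-3 and 3 higher in Kuramochi, with a median log2 difference of 0.61. Of the 365 that had been Kuramochi-only, 124 were higher in Kuramochi and 2 higher in OVCAR-3, with a median of -0.58. Over all tested regions the median was -0.05. Without centring, 5 and 0 of these line-only regions passed in the direction of their own line, while 95.8% of the OVCAR-3-only and 27.1% of the Kuramochi-only regions had a positive difference, against 66.5% of all. Under INX-315 FUT9 had 34.4 and 57.1 in OVCAR-3 against 3.74 and 4.24 in Kuramochi, and TNNI3 had 28.2 and 49.8 against 4.51 and 4.55, and neither pair overlapped. STOM had 46.5 and 30.7 in Kuramochi against 11.5 and 19.01 in OVCAR-3 under INX-315, again without overlap. Not all named regions kept their direction. The OVCAR-3-only region near ANKRD10 had 8.42 and 13.4 in OVCAR-3 against 12.65 and 6.505 in Kuramochi, and the lines overlapped. The Kuramochi-only regions at WLS and C18orf25 had higher folds in OVCAR-3, before centring.

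**Figure D5:**
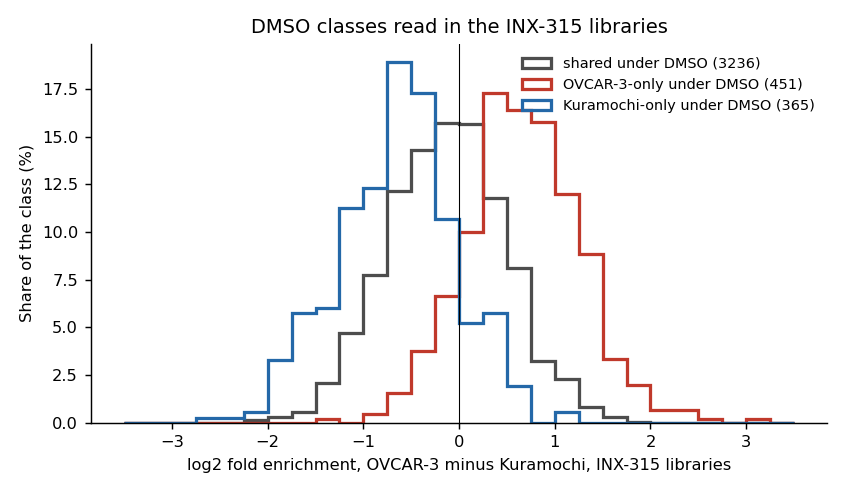
Histograms of the log2 difference in fold enrichment between the lines (OVCAR-3 minus Kuramochi, in bins of 0.25) in the INX-315 libraries, in percent of each class as set under DMSO. The regions that were OVCAR-3-only (median 0.61) lie to the right of the shared regions (median -0.12) and those that were Kuramochi-only (median -0.58) to the left, with broad overlap.

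The differences at shared sites were read in the INX-315 libraries as well. Of the 188 shared regions higher in OVCAR-3 under DMSO, 168 had a positive difference and 94 passed as higher in OVCAR-3 under INX-315, with 1 passing as higher in Kuramochi. Of the 234 tested that were higher in Kuramochi under DMSO, 178 passed as higher in Kuramochi and 0 as higher in OVCAR-3. Without centring the INX-315 values, 0 of the 188 and 0 of the 234 passed in limma, while 180 and 20 of them had a positive difference. Of the 2826 that were not called under DMSO, 192 and 482 passed as higher in OVCAR-3 and in Kuramochi. H2BC12 with H2AC12 differed by -1.42 ± 0.24 under INX-315 and MIS12 by -1.37 ± 0.18, and RAB23 by 1.30 ± 0.22. In a limma fit of line by treatment over the 3248 regions called in all 8 libraries, 0 regions passed for a change of the line difference, with 310 at an unadjusted p under 0.05.

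A small set of sites separated the lines in every library. Of the OVCAR-3-only regions, 98 (14.6%, 95% Wilson interval 12.1 to 17.4) were called in all 4 OVCAR-3 libraries and in no Kuramochi library, and of the Kuramochi-only regions 75 (14.2%, 11.4 to 17.4) were called in all 4 Kuramochi libraries and in no OVCAR-3 library. The share at promoters was 77 of 98 (78.6%, 69.5 to 85.5) for OVCAR-3 and 52 of 75 (69.3%, 58.2 to 78.6) for Kuramochi, against 91.3% (88.7 to 93.3) and 89.2% (86.1 to 91.8) of the other line-only regions. Their 200-bp windows held a median of 13 and 10 CpG dinucleotides, against 20 and 17 in the other line-only regions and 19 in shared ones. These medians take promoter and other regions together, and the sets differ in their share of promoters. At the starts of all protein-coding genes the median was 14. The strongest were chosen after their values were seen. For OVCAR-3 they were PCDHGC4 (11.9 and 15.8 under DMSO, 24.4 and 29.4 under INX-315), DMPK, CD200, IGF2BP1, PRKCH with TMEM30B, and STAMBPL1. For Kuramochi they were ZNF718 (33.2 and 66.0, then 109.6 and 74.0), BOLA1 (16.5 and 23.5, then 39.1 and 32.2), LTBP4, ZNF302, ZNF43 and REC8. Of the OVCAR-3-only epithelial genes, ESRP1, GRHL2 and KRT7 had no promoter peak in any Kuramochi library. OVOL2 (4.65 and 4.11) had one in both Kuramochi INX-315 libraries and GRHL1 (7.97) in the first. Of the Kuramochi-only mesenchymal genes, AXL had no promoter peak in any OVCAR-3 library. VIM (8.41 and 10.8) had one in both OVCAR-3 INX-315 libraries.

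The CpG dinucleotides of such promoters are shown on CLSPN, the strongest shared promoter, and on PCDHGC4 and BOLA1, the strongest promoters of either line-specific set with a stretch free of exons. Capitals mark CpG dinucleotides on the hg38 plus strand, at chr1:35769685-35769846, chr5:141484794-141484993 and chr1:149899731-149899842. The stretches differ in length, so the whole 200-bp windows are compared, which hold 23 at CLSPN, 11 at PCDHGC4 and 14 at BOLA1, the last above the median of its set.
CLSPN: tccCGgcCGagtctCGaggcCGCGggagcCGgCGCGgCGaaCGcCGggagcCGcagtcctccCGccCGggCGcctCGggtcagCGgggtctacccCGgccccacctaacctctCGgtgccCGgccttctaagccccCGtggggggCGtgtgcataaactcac
PCDHGC4: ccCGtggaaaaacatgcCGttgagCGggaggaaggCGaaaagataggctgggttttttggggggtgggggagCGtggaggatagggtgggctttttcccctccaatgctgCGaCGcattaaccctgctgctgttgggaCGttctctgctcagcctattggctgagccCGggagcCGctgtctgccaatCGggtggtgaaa
BOLA1: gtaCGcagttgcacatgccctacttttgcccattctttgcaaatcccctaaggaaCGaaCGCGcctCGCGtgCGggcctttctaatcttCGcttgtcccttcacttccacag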

How the data were processed

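Rb CUT&RUN peak lists of 4 DMSO libraries were analysed, with 4 INX-315 Rb and 2 IgG2a libraries as readout and control. The authors aligned reads to hg38 with Bowtie2 (version 2.3.4.1), removed mitochondrial and blacklisted reads, kept duplicates, and called peaks in each library with MACS2 (version 2.2.7.1, q-value 0.05) against the IgG2a library of the line. The deposited lists give a fold enrichment (a linear ratio over local background, with 1 added to both, computed by the authors' caller), with p-values and q-values of each peak as −log10. Fragments at the summit and the background were recovered from fold and p-value (relative tolerance 3e-05, a single solution for at least 98.6% of peaks per library), leaving out peaks whose −log10 p was at least 290. Peaks overlapping by 1 bp were merged, the strongest peak of a library representing the region. Promoters came from GENCODE release 44 (252835 starts). Log2 fold enrichment was tested with limma (version 3.58.1, lmFit and eBayes with trend, Benjamini-Hochberg, adjusted p under 0.05) in R 4.3.3. A run on simulated normal values gave every region an SD set by its strength alone. It could not show how the test behaves at regions with a larger spread. Shares have 95% Wilson intervals for counting error only. Motif windows and sequences came from hg38.

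The regions, gene lists and tests were chosen with earlier results of these data known. The named regions were the 5 strongest shared regions, the 6 strongest promoter and 4 strongest other regions of each line-only class by mean rank, the 5 largest differences each way among shared regions, and all line-only genes of a list up to 8 a line. A few of these genes and regions are not reported here. Read-level differential binding (DiffBind), the authors' method, was not run, since it needs reads that were not used here. Same-numbered libraries deviated from their line's mean with Pearson's r of 0.065 across regions under DMSO and -0.039 under INX-315.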

Additional observations from a re-analysis of the deposited data

How the results depend on the processing

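The line-only counts depend on the caller's threshold and on the number of libraries. Merging summits within 250 bp, a q-value of at most 0.001, lists of 5221 peaks each and a fold of at least 5 gave 2464 to 2776 shared, 611 to 707 OVCAR-3-only and 503 to 617 Kuramochi-only regions. Leaving out 1 library in turn, so that its line had 1, gave 3341 to 4163 shared, 754 to 2371 OVCAR-3-only and 726 to 2938 Kuramochi-only regions. The ratio of peak numbers (OVCAR-3 over Kuramochi, 1.01) ranged from 0.804 to 1.355 and reversed to 0.879 without the second OVCAR-3 library and 0.804 without the first Kuramochi library. The difference in promoter share (0.640 percentage points) ranged from -2.41 to 3.69 and was -0.698 without the first OVCAR-3 library and -2.41 without the second Kuramochi library. With equal list lengths the promoter share of OVCAR-3-only regions was 92.5% and of Kuramochi-only regions 89.5%, and 2 epithelial genes (ESRP1 and KRT7) were OVCAR-3-only in place of 5, while CDC20, AXL, HOXA5 and HOXA10 became mixed.

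When the INX-315 peak had to cover the DMSO summit, 98.3% of shared regions were called in all 4 INX-315 libraries, OVCAR-3-only regions were called in both own libraries in 92.1%, in both of the other line in 55.0% and in their own line alone in 20.8%, and Kuramochi-only regions in 91.3% and 63.8% for own and other line. With equal INX-315 lists 17.7% of Kuramochi-only regions were called in their own line alone. In windows of 100 bp the E2F letters were in 2.31%, 1.495% and 1.31% of shared, OVCAR-3-only and Kuramochi-only promoters, beside 0.891% of all starts, since shorter windows hold fewer letters.

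In the limma fit of shared regions, no centring gave 48 calls (9 higher in OVCAR-3, 39 higher in Kuramochi) and summit fragments 702 (341 and 361). Leaving out 1 library gave 88 to 216 calls, 22 to 110 higher in OVCAR-3 and 66 to 106 higher in Kuramochi. In the INX-315 fit no centring gave 5 calls in all, 5 of OVCAR-3-only and 0 of Kuramochi-only regions in their own direction, and leaving out 1 library gave 1082 to 1671 calls, 112 to 118 and 60 to 102 of them in these classes. The cause of the loss without centring was not tested. With the replicate number as a block, 435 shared regions passed against 423 without it, 417 of them in both fits, and 2266 of the INX-315 regions passed. Samples with the same number share only that number.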

Other observations

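Zinc finger genes were counted among the line-only promoters, a family picked after the values were seen. Of 515 protein-coding genes named ZNF and a number, which mostly encode DNA-binding repressors, 32 (6.21%) were Kuramochi-only and 8 (1.55%) OVCAR-3-only, beside 2.14% and 2.71% of all protein-coding genes, while 87 (16.9%) were shared. On chromosome 19, where many of these genes are clustered, 21 of 249 (8.43%) were Kuramochi-only, against 40 of all 1476 protein-coding genes of that chromosome (2.71%). On the other chromosomes 11 of 266 (4.14%) were Kuramochi-only. Clustered genes can share a promoter region, and no test was made.

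Clustered protocadherin genes seldom had a called Rb peak. Of 53 genes, 50 (94.3%) had no promoter peak in any DMSO library, against 51.7% of all protein-coding genes, 0 were shared, 1 was OVCAR-3-only (PCDHGC4), 1 Kuramochi-only and 1 mixed. This family too was chosen after its values were seen.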
